A study of Mus musculus with 6 samples.

Results

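The 10 genes described here are the 4 Lrrtm genes (Lrrtm1, Lrrtm2, Lrrtm3 and Lrrtm4), the 3 Flrt genes (Flrt1, Flrt2 and Flrt3) and the 3 latrophilin genes (Adgrl1, Adgrl2 and Adgrl3). They were chosen by name, as synaptic adhesion families with leucine-rich repeats and the adhesion receptors that bind the FLRT proteins among them. Matching by Ensembl identifier to GENCODE mouse M21 found all 10 among the 46078 genes of the deposited table. RNA came from the dissected striatum, the input nucleus of the basal ganglia, of mice of the C57BL/6J strain aged 12 weeks. The study compared 3 TG mice with 3 WT mice, and described all of them as male. The TG mice overexpress an EGFP-Shank3 transgene, a fusion of a green fluorescent protein with Shank3, a scaffold protein of the excitatory postsynapse, and the WT mice lack it. Each library came from 1 mouse. The comparison asked which of these adhesion genes differed in RNA level between the genotypes. The promoter of the transgene is not given in the sources used here. None of the 10 genes passed the test in either direction, and their 95% intervals together spanned changes from -17.4% to 29.1%.

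LRRTM proteins are postsynaptic membrane proteins whose leucine-rich repeats bind presynaptic neurexins, and for LRRTM4 also the heparan sulfate chains carried by glypicans and neurexins. FLRT proteins carry leucine-rich repeats and a fibronectin domain, and bind latrophilins and the netrin receptors of the Unc5 family. Latrophilins are adhesion G protein-coupled receptors that bind teneurins and FLRT proteins outside the cell. Their C-terminal tail ends in a motif that the PDZ domain of Shank proteins binds, which ties this family to the scaffold that the TG mice overexpress.

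The coding ends are shown because the last codons of the latrophilins encode the part that meets the Shank PDZ domain. Each line gives, 5′ to 3′ on the coding strand, the last 30 coding bases before the stop codon from the GENCODE M21 transcripts (GRCm38), with the last 12 bases, or 4 codons, in capitals. The FLRT ends and that of Lrrtm1 are given beside them, and what these ends bind was not examined.
Adgrl1: gacgggcaaatgcagttgGTCACTAGTCTC
Adgrl2: gaaggacagatgcagctgGTGACAAGTCTT
Adgrl3: aaaggacccgcgcacttgGTCACTAGTCTA
Flrt1: ggcatccctgatgtggacTACTCCTACACA
Flrt2: agtgtgccagatctagagCATTGCCATACG
Flrt3: ggcatcccagactcggacCACTCACACTCA
Lrrtm1: caccagcagcctgcgaggGAATGCGAGGTG
Position by position, the capitals of Adgrl1 and Adgrl3 were identical at 11 of 12 bases, and those of Adgrl2 matched either of them at 9 of 12. These counts compare bases. Under the standard genetic code the 4 codons in capitals encode the same residues in Adgrl1, Adgrl2 and Adgrl3, so the differences among them are synonymous. Over the 30 bases Adgrl1 and Adgrl2 matched at 23, and Flrt1 and Flrt3 at 22. The capitals of the latrophilins matched those of each Flrt gene at between 1 and 3 of 12 bases. The Adgrl1 end lies at chr8:83939054-83939083 on the plus strand and is shared by 5 of its 5 complete coding transcripts. The Adgrl2 end, at chr3:148817177-148817206 on the minus strand, is shared by 9 of 11. The Adgrl3 end, at chr5:81795031-81795060 on the plus strand, is shared by 10 of 19, so Adgrl3 is also annotated with other ends, which gene-level counts cannot tell apart.

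Of the 10 genes, 5 lie inside another gene on the opposite strand. Lrrtm1 (chr6:77242689-77257791) lies within Ctnna2, Lrrtm2 (chr18:35209003-35215024) within Ctnna1 and Lrrtm3 (chr10:63928472-64090277) within Ctnna3, the 3 genes of the alpha-catenins, which link cadherins to actin. Flrt1 (chr19:7092001-7105729) lies within Macrod1 and Flrt3 (chr2:140650914-140671469) within Macrod2, a pair of genes for ADP-ribose hydrolases. Lrrtm2 and Ctnna1 share 95 exonic bases, which is 1.58% of the exonic length of Lrrtm2. For the other 4 nested genes no exonic base is shared with the host. Lrrtm4 (chr6:80018877-80810143) shares 25.1% of its exonic bases with the antisense gene Gm4409, Adgrl1 (chr8:83900105-83941954) 12.9% with Gm10644 and Adgrl3 (chr5:81020138-81825133) 8.91% with Gm16054. Adgrl2 (chr3:148815583-148990555) shares 1.42% with Gm43573, and Flrt2 (chr12:95692226-95785215) shares none with another annotated gene. The paper names a TruSeq RNA kit for the libraries and does not call them stranded. Whether strand was used in the counting is not given in the sources used here. Reads in shared exons therefore cannot be assigned to either gene with certainty. The levels per kb below divide by the full exonic length, with the shared bases included. The antisense partners were low, with normalized read counts of 0 to 2.57 for Gm4409, 23.2 to 32.4 for Gm10644, 5.15 to 12.4 for Gm43573 and 54.2 to 79.8 for Gm16054. These counts carry the same uncertainty in the shared bases, so they do not measure the signal there. The transcripts of the 10 genes shared no run of 100 bases with each other.

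**Figure D1:**
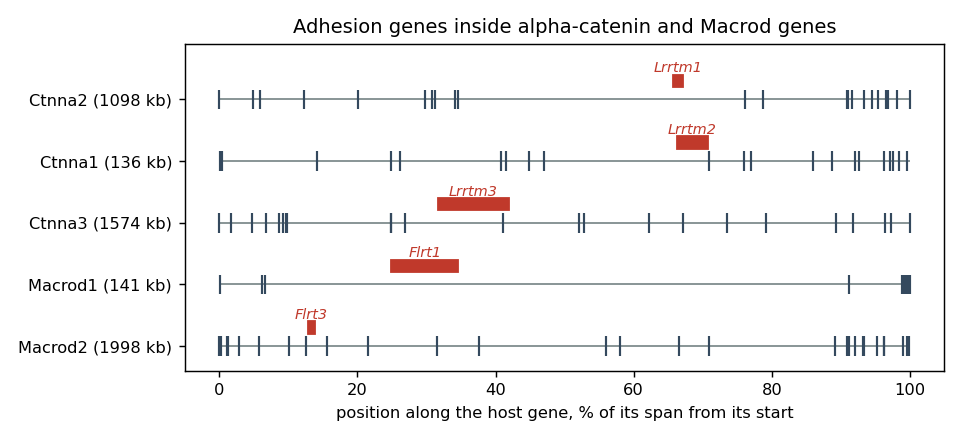
The position of 5 adhesion genes along the gene that contains them, in percent of the host gene's span from its start on its own strand, with the span in kb beside each name. Vertical ticks are host exons and filled boxes are the whole member genes, drawn above the line because they lie on the opposite strand. Lrrtm1, Flrt1 and Flrt3 sit between exons of their hosts, the edge of Lrrtm2 meets an exon of Ctnna1, and the span of Lrrtm3 holds an exon of Ctnna3 within an intron.

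The deposited values are normalized read counts, and dividing by each library's smallest value gave back whole reads, 27689589 to 36647626 per library. Between 29843 and 39022 of those reads fell on the 10 genes. Shank3 checked the labels. Normalized counts of 29891, 28309 and 26044 in TG stood against 13807, 12918 and 13865 in WT, a log2 fold change (TG minus WT) of 1.05 (SE 0.060, limma adjusted p = 7.04e-05). The striatal genes Drd1, Drd2 and Ppp1r1b were abundant in every library, with Drd1 at 4237 to 6615. The choroid plexus gene Ttr read 13701 in TG replicate 1 against 120 to 1122 in the other 5 libraries, so that library stands apart, and Slc17a7, a marker of cortical excitatory neurons, read 20237 to 29848. In bulk tissue such as this, fewer cells of a type and less RNA per cell cannot be told apart.

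Lrrtm1 and Lrrtm2, both neurexin ligands, overlapped between genotypes. The authors cite an earlier report that Shank3 in the nucleus may regulate several genes, with Lrrtm1 among them. Lrrtm1 read 1541, 1743 and 1636 in TG replicates 1 to 3 and 1614, 1773 and 1741 in WT replicates 1 to 3. The TG mean was 1640 ± 101 and the WT mean 1709 ± 84.3 (SD, n = 3), and TG replicate 2 lay above 2 of the 3 WT values. Its log2 fold change was -0.06 (SE 0.061), with a 95% interval of change from -12.7% to 5.35%. Lrrtm2 read 2475, 2610 and 2784 in TG and 2418, 2475 and 2610 in WT. The highest value was that of TG replicate 3, and the log2 fold change was 0.07 (SE 0.056), from -3.83% to 14.2%. WT replicate 3 lay above 1 TG value and less than 1 read count above another, so the groups overlapped. Without that mouse they did not, as for 18.5% of all genes tested. That separation was just as narrow, with TG replicate 1 at 2475.5 and WT replicate 2 at 2474.6.

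Lrrtm3, the member of the family that lies within Ctnna3, read 2007, 2109 and 1920 in TG and 2014, 2119 and 1768 in WT. WT replicate 3 held the lowest value and the other 5 were interleaved, and the log2 fold change was 0.04 (SE 0.070), from -7.89% to 14.0%. Lrrtm4, a glypican-binding member, read 452, 518 and 411 in TG and 465, 435 and 366 in WT. TG replicate 2 was the highest and WT replicate 3 the lowest, and the remaining 4 values were interleaved. Its log2 fold change of 0.13 (SE 0.109) was the largest of the 10 in size, and its interval, from -7.72% to 29.1%, was also the widest. The exact permutation p of the 4 Lrrtm genes, two-sided over 3 against 3 mice, ran from 0.3 to 0.9, where 0.1 is the smallest this design can give.

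The FLRT genes overlapped between genotypes as well. Flrt1 read 1150, 1182 and 1242 in TG and 1017, 1345 and 1303 in WT. The 3 TG values lay inside the WT range, and the log2 fold change was -0.03 (SE 0.095), from -15.1% to 13.5%. Flrt2 read 2016, 1906 and 1894 in TG and 1979, 2159 and 1651 in WT. Here too the TG values lay inside the WT range, with an SD of 67.4 in TG and 258 in WT and a log2 fold change of 0.01 (SE 0.085), from -11.3% to 15.1%. Flrt3 read 1075, 1330 and 1023 in TG and 1150, 1263 and 1181 in WT. Its TG values held both the highest and the lowest of the 6, and the log2 fold change was -0.08 (SE 0.090), from -17.4% to 8.93%. TG replicate 2 alone placed Flrt3 in the overlap: without that mouse its log2 fold change was -0.19 (limma adjusted p = 0.769). WT replicate 1 alone did so for Flrt1, whose log2 fold change without it was -0.15 (limma adjusted p = 0.980). Of all genes tested, 21.2% did not overlap without TG replicate 2 and 20.1% without WT replicate 1.

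The latrophilins are the group whose tails bind Shank. Adgrl1, the most abundant of the 10, read 16169, 15230 and 16164 in TG and 16669, 16136 and 16497 in WT. TG replicates 1 and 3 lay just above the lowest WT value, and without that mouse, WT replicate 2, the groups did not overlap, as for 19.6% of all genes tested. The log2 fold change was -0.05 (SE 0.047), from -10.2% to 3.62%. Adgrl2 read 3918, 4272 and 4480 in TG and 4203, 4477 and 4703 in WT. Its lowest value was that of TG replicate 1 and its highest that of WT replicate 3, with a log2 fold change of -0.08 (SE 0.061), from -13.8% to 3.94%. Adgrl3 read 2679, 3019 and 2726 in TG and 2625, 2961 and 2800 in WT. It had the smallest difference of the 10, a log2 fold change of 0.01 (SE 0.062), from -8.68% to 10.5%. The exact permutation p of the 3 genes ran from 0.3 to 1.0.

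The summed latrophilin level per kb of exon, which Adgrl1 dominates, was 2310, 2245 and 2352 in TG and 2385, 2361 and 2410 in WT. These sums did not overlap, with a TG mean of 2302 ± 53.9 and a WT mean of 2386 ± 24.5 (SD, n = 3), a TG to WT ratio of 0.965. The highest TG sum and the lowest WT sum were only 9.67 apart per kb, and 1.05 apart with the longest transcript in place of the union of exons as the length. The sum was examined after its values were seen, was not tested, and is set beside 5.05% of single genes tested whose 3 TG values all lay below the 3 WT values. The LRRTM sum (1465 to 1588 in TG, 1483 to 1565 in WT) and the FLRT sum (667 to 722 in TG, 666 to 768 in WT) overlapped.

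**Figure D2:**
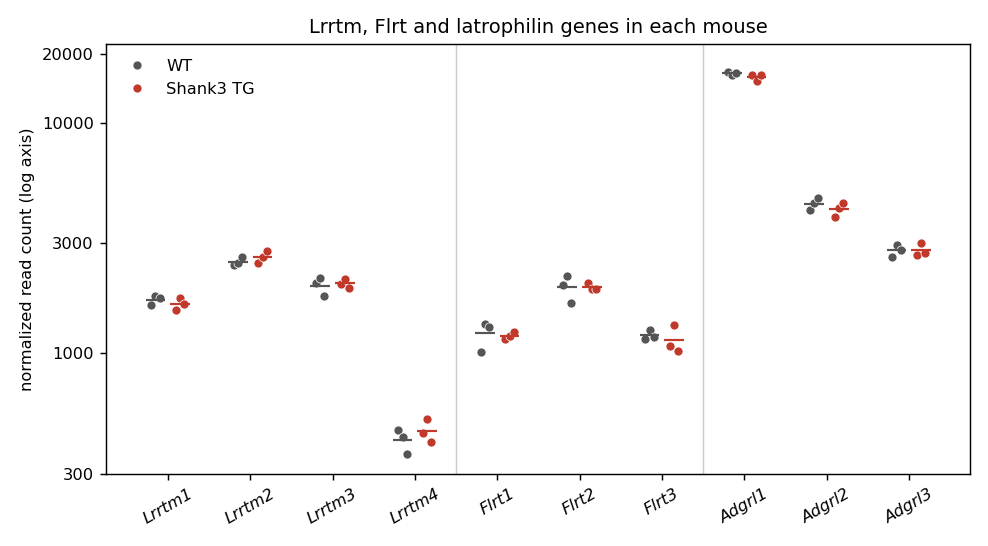
The normalized read count of each of the 10 genes in each mouse, on a log axis, with WT mice in grey and Shank3 TG mice in red and a bar at each group mean (n = 3). Every gene's TG and WT points share part of their range, from Lrrtm4 at 366 to 518 up to Adgrl1 at 15230 to 16669.

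Across the 10 genes, all of which passed the filter on low values, 0 passed a limma adjusted p of 0.05, against 0.00568% of the 17605 genes tested (1 gene, Shank3). With edgeR (0.00568% of all genes) and DESeq2 (0.0398%) the count was also 0. At an unadjusted p of 0.05 the count was 0 with limma, edgeR and DESeq2, where 4.31% (1.98% higher and 2.33% lower in TG), 4.38% and 2.45% of all genes passed, and also with limma-voom (4.24%), and the lowest unadjusted p was 0.221 in limma, that of Adgrl2. Without TG replicate 1, the library with high Ttr, the count at an unadjusted p of 0.05 was also 0, where 7.54% of all genes passed. No member was without overlap between the groups, against 10.1% of all genes tested. In direction, 5 genes had a higher and 5 a lower TG mean on the log2 scale, with a median log2 fold change of -0.01 beside -0.0018 for all genes tested. For 9 of the 10 the fold change was smaller than the gene's own SD within genotype, Adgrl1 being the exception. The SD exceeded what counting error alone gives in all 10. The median SD within genotype was 0.098 on the log2 scale for the members, 0.108 for all genes tested and 0.071 for the 9158 genes at least as abundant as Lrrtm4.

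**Figure D3:**
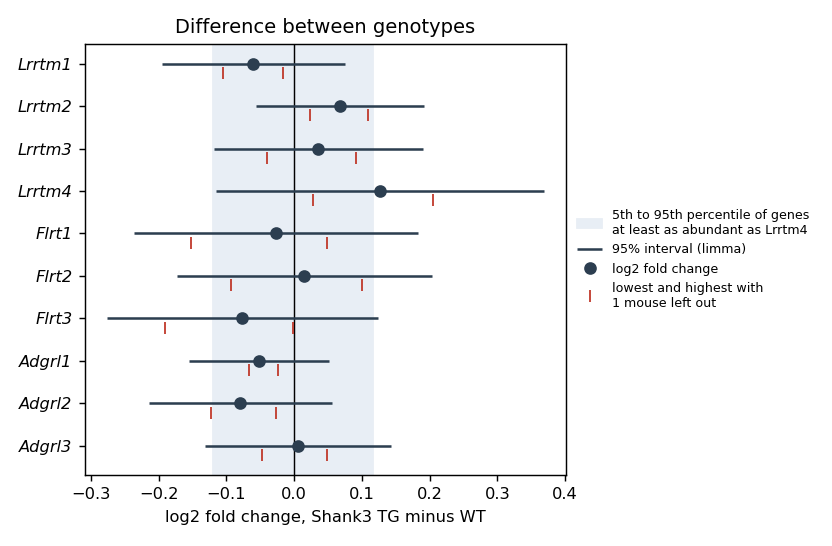
The log2 fold change (TG minus WT) of each of the 10 genes as a point with its 95% limma interval, with red ticks at the lowest and highest value when 1 mouse is left out. The shaded band is the 5th to 95th percentile, -0.12 to 0.12, of the 9158 genes at least as abundant as Lrrtm4, and all 10 intervals cross 0. The point of Lrrtm4, at 0.13, lies just above the band. Over all genes tested the same percentiles are -0.27 and 0.23.

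Per kb of exon, where the length is the union of all annotated exons, levels over the 6 mice ran from Adgrl1 at 1880 ± 57.9 (SD, n = 6) to Lrrtm4 at 71.8 ± 8.35. Adgrl1 stood at the 96.5th percentile of the genes tested and Lrrtm4 at the 39.0th. Below Adgrl1 came Lrrtm1 (552 ± 30.2), Lrrtm3 (468 ± 30.8), Lrrtm2 (425 ± 22.2) and Adgrl2 (306 ± 19.2), so 3 Lrrtm genes stood together in the order. Flrt2 (251 ± 21.8), Flrt3 (241 ± 23.4) and Flrt1 (205 ± 20.0) followed, and Adgrl3 (158 ± 8.89) preceded Lrrtm4. Of the 9 neighbouring pairs, 6 had the same direction in 6 of 6 mice. For each of these, the two-sided exact sign-flip permutation test over 6 mice gave p = 0.03125, the smallest it can give. The adjusted p over 9 pairs was 0.0469, a value that depended on how many pairs reached that smallest p. The other pairs were Lrrtm3 and Lrrtm2 (adjusted exact p = 0.141, higher in 4 of 6 mice), Flrt2 and Flrt3 (0.406, 4 of 6) and Flrt3 and Flrt1 (0.0804, 5 of 6). The pairs and their direction were taken from the means of the same values that were tested, so these p-values are no independent support for the order. The test covers the spread between mice and not the error of the length.

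The choice of length mattered for Adgrl2 and Adgrl3, whose exons add up to 14.2 and 17.8 kb over 20 and 35 annotated transcripts. With the longest transcript as the length (6.05 and 6.79 kb), Adgrl2 stood at 717 ± 45.0 and moved from rank 5 to rank 2, and Adgrl3 stood at 412 ± 23.2 and moved from rank 9 to rank 6. Adgrl1 remained first and Lrrtm4 last. Adgrl1 gave 79.0% to 81.5% of the summed latrophilin level in the 6 mice with the union of exons and 61.8% to 65.5% with the longest transcript. Within the LRRTM family, Lrrtm4 gave 4.02% to 5.31% of the sum, and the other members 26.3% to 38.7% each. The 3 FLRT genes were closer to equal, at 26.0% to 38.5% each. These shares overlapped between genotypes for each of the 10 genes, under both lengths.

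**Figure D4:**
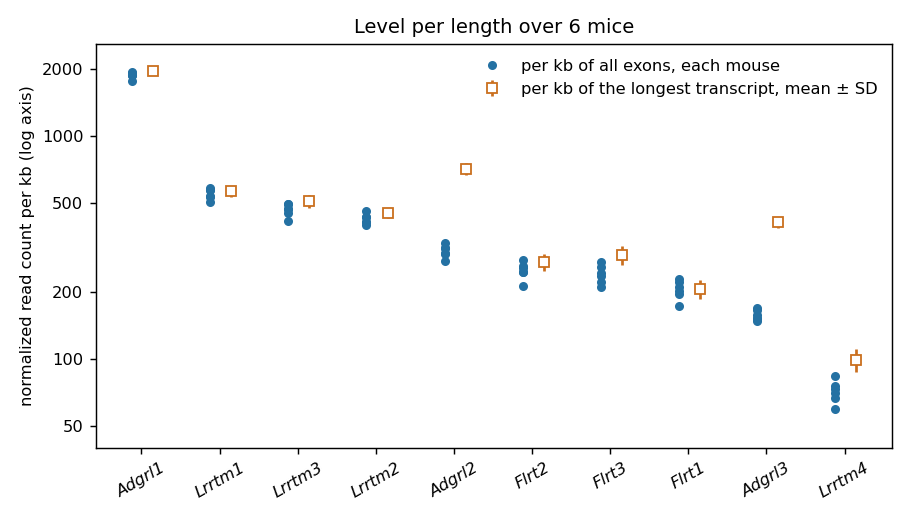
Normalized read count per kb for the 10 genes on a log axis, in the order of the level per kb of all exons. Filled points are the 6 mice with the union of exons as the length, and open squares are the mean ± SD with the longest transcript as the length, which lifts Adgrl2 from 306 to 717 and Adgrl3 from 158 to 412.

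The nested genes and their hosts were set side by side per kb of exon. Lrrtm1 stood at 0.785 to 0.917 of the level of Ctnna2 and Lrrtm2 at 0.916 to 1.06 of that of Ctnna1. Flrt1 stood at 1.03 to 1.51 of the level of Macrod1, and Flrt3 at 1.06 to 1.44 of that of Macrod2. Lrrtm3 differed from this pattern, at 29.4 to 42.3 times the level of Ctnna3, whose normalized read counts were 80.7 to 102 in the 6 mice. For each of the 5 pairs the TG and WT ratios overlapped. None of the 5 hosts passed an unadjusted p of 0.05, where 4.31% of all genes tested did. Their log2 fold changes were 0.05 for Ctnna2 and Macrod2, -0.02 for Ctnna1, -0.06 for Ctnna3 and -0.11 for Macrod1. Ctnna2 read 4495, 4497 and 4709 in TG and 4485, 4447 and 4346 in WT, so its groups did not overlap (exact permutation p = 0.1, two-sided, n = 3). Of all genes tested, 5.06% were higher in TG without overlap.

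The known partners outside the cell were next. Of 13 LRRTM ligands (neurexins, glypicans and syndecans), 0 passed an unadjusted p of 0.05, where 4.31% of all genes tested did. Of the 13, 9 were higher and 4 lower in TG, with a median log2 fold change of 0.05. Nrxn2 and Nrxn3, which encode presynaptic ligands, had log2 fold changes of -0.06 (SE 0.079) and 0.07 (SE 0.069). Gpc4, a glypican ligand of Lrrtm4, read 215, 211 and 204 in TG and 192, 203 and 193 in WT, higher without overlap, as for 5.06% of all genes tested. Its log2 fold change was 0.10 (SE 0.092, exact permutation p = 0.1, two-sided).

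Of 10 genes for teneurins, Unc5 receptors and other FLRT partners, 1 passed an unadjusted p of 0.05, where 4.31% of all genes tested did. Tenm1, a teneurin that latrophilins bind, read 1836, 1889 and 1634 in TG and 1321, 1728 and 1371 in WT. WT replicate 2 lay inside the TG range, and the other 2 WT values lay below it. The log2 fold change was 0.29 (SE 0.096, limma adjusted p = 0.971), so it did not pass over all genes tested. Without WT replicate 1 or WT replicate 3, or with the choroid plexus markers as a covariate, it did not pass an unadjusted p of 0.05 either. Tenm2, Tenm3 and Tenm4 had log2 fold changes of -0.02, 0.08 and 0.0037. Unc5c, a netrin receptor, read 1126, 1194 and 1244 in TG and 1068, 1167 and 989 in WT, with a log2 fold change of 0.15 (SE 0.070, limma adjusted p = 0.971), and Unc5a, Unc5b and Unc5d had values of -0.04, -0.05 and 0.07.

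Inside the cell, 0 of 11 scaffold and adaptor genes other than Shank3 passed an unadjusted p of 0.05, where 4.31% of all genes tested did. Shank1 read 13834, 9392 and 11443 in TG and 13080, 13005 and 11763 in WT, a log2 fold change of -0.14 (SE 0.112), and Shank2 had a log2 fold change of -0.02 (SE 0.074). TG replicate 1 held the highest Shank1 value and TG replicate 2 the lowest. Dlg4, which encodes the scaffold PSD-95, read 24892 to 26124 in TG and 25379 to 27266 in WT, a log2 fold change of -0.05 (SE 0.050). Dlg1 (log2 fold change 0.07, SE 0.044) and Git1 (-0.13, SE 0.069) had the smallest p in each direction among the partners not named above, and Dlg1 was without overlap. Over the 4 lists of partners and hosts, 39 genes without Shank3, 1 passed an unadjusted p of 0.05 and 3 (Gpc4, Dlg1 and Ctnna2, all higher in TG) were without overlap, beside 4.31% and 10.1% of all genes tested (5.06% higher without overlap). No adjusted p passed. Without TG replicate 1 the count at an unadjusted p of 0.05 was 8 (Tenm1, Nrxn3 and Unc5c higher, Nrxn2, Unc5a, Shank1, Git1 and Macrod1 lower), beside 7.54% of all genes tested, and without WT replicate 1 (4.0% of all genes) or WT replicate 3 (3.34%) it was 0. It was 3 without WT replicate 2 (3.73%), 2 without TG replicate 3 (2.85%) and 5 with the choroid plexus covariate (6.06%), and none of these had an adjusted p that passed.

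Related families set the members in context. Of 22 other adhesion genes with leucine-rich repeats, 3 passed an unadjusted p of 0.05: Slitrk4 (log2 fold change 0.19, SE 0.061), Slitrk1 (0.17, SE 0.070) and Lrrc4b (-0.12, SE 0.047). Slitrk proteins and the netrin-G ligand encoded by Lrrc4b are, like the LRRTM proteins, synaptic organizers. Of 18 other adhesion G protein-coupled receptors that were measured, 3 did so, where 4.31% of all genes passed: Celsr1 (-0.28, SE 0.077), Adgrl4 (0.23, SE 0.071) and Celsr3 (-0.13, SE 0.059). Adgrl4, an endothelial receptor, read 900, 785 and 836 in TG and 689, 700 and 762 in WT, without overlap. Slitrk4 was also higher and Lrrc4b and Celsr1 lower in TG without overlap, and Adgrg6, named after its values were seen, was higher without overlap, which makes 2 of the 22 and 3 of the 18 beside 10.1% of all genes. The 6 that passed an unadjusted p of 0.05 had a limma adjusted p of 0.971, and no test compared the lists with the members.

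Which mouse was highest or lowest differed from gene to gene. TG replicate 1 had the lowest of the 6 values of Lrrtm1 and of Adgrl2, at -0.15 and -0.19 from the WT mean on the log2 scale. TG replicate 2 had the highest of Lrrtm4, Flrt3 and Adgrl3 and the lowest of Adgrl1. WT replicate 3 had the lowest of Lrrtm3, Lrrtm4 and Flrt2. Summed markers of cell types also varied among the mice. The 12 markers of spiny neurons, the main striatal cell type, summed to 131540 in TG replicate 1 and to between 153685 and 183120 in the other 5 libraries. Of these markers, 10 had a lower and 2 a higher mean in TG, and the sums overlapped between genotypes. Their median log2 fold change was -0.14, beside -0.11 for the microglial markers and -0.0018 for all genes tested. The 12 cortical markers summed to 45986 in TG replicate 2 and to between 50841 and 60511 elsewhere. The 10 choroid plexus markers had a higher mean in TG in 10 of 10 cases, and 9 were above 0 in every library. They summed to 15605 in TG replicate 1, 2003 in TG replicate 2 and 570 to 923 in the other 4. The 8 microglial markers had a lower mean in TG in 8 of 8 cases, and their sums did not overlap (11173 to 12059 in TG, 12103 to 12667 in WT). Of the 8, 3 were lower at an unadjusted limma p under 0.05, where 2.33% of all genes tested were. Also, 3 of the 8 were lower without overlap, beside 5.05% of all genes tested. With the cortical or the choroid plexus sum as a covariate, 0 of the 10 genes passed an adjusted p. The part of the spiny neuron and microglial markers in these values was not tested.

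**Figure D5:**
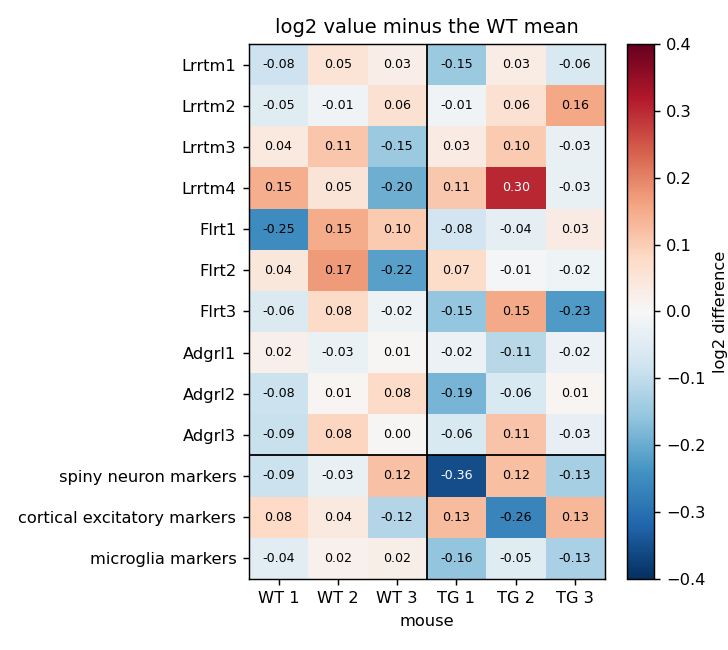
The log2 value of each of the 10 genes in each mouse minus the WT mean, with the summed markers of spiny neurons, cortical excitatory neurons and microglia below the line. Red is above and blue below the WT mean. The columns differ in which genes are high or low, as for Lrrtm4 in TG replicate 2 (0.30) and the spiny neuron markers in TG replicate 1 (-0.36).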

How the data were processed

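The authors used Trimmomatic 0.35 to trim the reads, TopHat2 2.1.0 to align them to GRCm38 and HTSeq for gene counts, which they scaled by DESeq2 size factors, so the deposited signal is a normalized read count per gene and library. The strand setting and the annotation release are not given in the sources used here. Dividing each library by its smallest value gave whole reads within 0.01 for 100.0% of values, 27689589 to 36647626 per library. Genes with a mean of at least 10 (17605) were tested with limma 3.58.1 (R 4.3.3) on log2(value + 1), its variance prior following a trend with the mean, without covariates, with Benjamini-Hochberg adjustment over all genes tested. Fold changes are on that scale. Alternatives were edgeR 4.0.16, DESeq2 1.42.0 and limma-voom on the recovered reads, other scalings, filters and pseudocounts, each mouse left out, a replicate block and marker covariates. The fits were tested on simulated data. Lengths, positions and coding ends came from GENCODE M21 on GRCm38, which matched 45143 of 46078 identifiers.

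The members and lists were chosen with earlier results of these data known. The text names the 10 members, Shank genes, Dlg4, hosts, Nrxn2, Nrxn3, Gpc4, teneurins and Unc5 genes, the gene with the smallest p in each direction among the rest of the partners and in the related families, and any gene at an unadjusted p of 0.05 where 5 or fewer had one. A gene that this rule also names is not reported here. Markers of thalamus, astrocytes, oligodendrocytes and endothelial cells were also summed, and the highest mouse stood at 1.21, 1.06, 1.14 and 1.22 times the lowest. The names Adgrc1, Adgrc2 and Adgrc3 matched no row, and these genes were found as Celsr1, Celsr2 and Celsr3. Intervals of the limma fit cover the spread between mice. Protein sequences were not used here.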

Additional observations from a re-analysis of the deposited data

How the results depend on the processing

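Under the 18 alternatives, 0 members passed an adjusted p, and Shank3 passed in each (log2 fold change 0.97 to 1.10). The median log2 fold change of the members ran from -0.04 to 0.05. Leaving out 1 mouse at a time gave 0 to 1 members at an unadjusted p of 0.05 (Flrt3 without TG replicate 2, where 5.84% of all genes passed, and Flrt1 without WT replicate 1, where 4.0% did) and 0 to 1 without overlap (also Adgrl1, lower without WT replicate 2, and Lrrtm2, higher without WT replicate 3), where 17.0% to 25.6% of all genes did not overlap. Over the left-out mice, 4 members changed sign: Flrt1 ran from -0.15 to 0.048 (above 0 without WT replicate 2 or 3), Flrt2 from -0.093 to 0.10 (below 0 without TG replicate 1 or WT replicate 3), Adgrl3 from -0.047 to 0.049 (below 0 without TG replicate 2 or WT replicate 1) and Lrrtm3 from -0.039 to 0.091 (below 0 without WT replicate 3). With the choroid plexus markers as a covariate, Flrt1 (0.022) and Flrt2 (-0.00067) reversed. The other 6 members kept their direction under all 18.

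The count of partner genes at an unadjusted p of 0.05, 1 in all, was 0 to 8 with 1 mouse left out, being 8 without TG replicate 1, the library with high choroid plexus markers (7.54% of all genes then passed), 3 without WT replicate 2, 2 without TG replicate 3, and 0 without WT replicate 1 or WT replicate 3, when Tenm1 was lost. It was 2 with the cortical covariate (Tenm1 and Git1) and 5 with the choroid plexus covariate, when Tenm1 was also lost. The cause was not tested. With the replicate block it was 2 (Tenm1 and Git1), and no member's call changed. Replicate numbers were shared by the genotypes, but the deviations of same-numbered mice correlated at only 0.047, 0.016 and 0.093, so the numbers were not taken to pair the mice. Among the TG mice, replicate 3 correlated best with its own number, replicate 1 best with WT replicate 2 (0.077) and replicate 2 best with WT replicate 3 (0.050).

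With the longest transcript as the length, the neighbours in the order of levels differed, and 7 pairs passed in place of 6. Lrrtm1 and Lrrtm3 were the only pair that was tested and passed under both lengths. Of the 9 neighbours by the union of exons, 6 kept their order, which each left-out mouse left at 9 of 9. The pairs Lrrtm2 and Adgrl2, and Flrt1 and Adgrl3, had passed and were reversed. Flrt2 and Flrt3, which had not passed, were also reversed. With 5 mice the smallest p is 0.0625, so that test could not pass. The latrophilin sum remained without overlap under the longest transcript length, TMM scaling and library totals, with gaps per kb of 1.05, 2.52 and 16.6 beside 9.67 as reported, alternatives chosen after seeing the data. With 3 mice per genotype, the spread between mice exceeded the counting error in all 10 members.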
